A study of Mus musculus with 24 samples.

Results

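Lipoproteins are the particles in which the liver sends triglyceride and cholesterol into the blood. Apolipoprotein B is loaded with lipid in the hepatocyte by the microsomal triglyceride transfer protein, while apolipoprotein A-I is the main protein of high-density lipoprotein (HDL). Other apolipoproteins and enzymes then act on the particles in plasma. The 10 genes described here are *Apob*, *Mttp* and *Cideb*, which act in the assembly of very-low-density lipoprotein, the apolipoprotein genes *Apoa1*, *Apoa4*, *Apoa5*, *Apoc3* and *Apom*, and the genes of the lipid-processing enzymes LCAT and hepatic lipase, *Lcat* and *Lipc*. They were taken from the tables by gene name, as a set drawn up with earlier results of these data known, and were 10 of the 54733 genes in the deposited tables and 10 of the 11244 that passed a filter (mean level over the libraries of 1 FPKM or more) and were tested. FPKM counts the fragments of a gene per length of its transcript and per number of mapped fragments, so levels can be set side by side between genes.

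RNA-seq of poly(A)-tailed RNA was performed on livers of male C57BL/6 mice, either WT or ΔRRE, whose RREs (binding elements of REV-ERB and ROR) in *Bmal1* were deleted by genome editing in the germ line. The ΔRRE mice were of mutant line #1 unless the study says otherwise, and all mice, WT included, had free access to chow and were in constant darkness when the livers were taken. Livers were collected at 6 projected circadian times, CT2, CT6, CT10, CT14, CT18 and CT22, with 2 libraries per genotype and time, 12 WT and 12 ΔRRE libraries in all. The study's methods give a range of ages for its tissue collections, with no age for single libraries. The labels do not say that the libraries of a group came from separate mice, so the p-values measure the spread between these libraries. The question the design addresses is which hepatic rhythms and levels change when *Bmal1* is no longer transcribed rhythmically.

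Total FPKM was from 554170 to 624746 per library, and read counts were not used here, so single values carry no counting interval. No pair of libraries shared more than 0.0380% of its nonzero values. The label check used *Bmal1* (*Arntl* in the files). In WT, *Arntl* was at 12.6 and 13.2 FPKM at CT2 and at 0.195 and 0.0919 FPKM at CT10, whereas the ΔRRE libraries were at 3.58 and 3.16 FPKM at CT2 and at 2.50 and 2.096 FPKM at CT10. Hepatocyte markers were high, with *Alb*, serum albumin, at a median of 27374 FPKM. *Apoa4*, *Apob* and *Mttp* are genes of the intestine as well as of the liver. Of 8 enterocyte markers, 7 had a mean below 0.1 FPKM, and the other, *Fabp2*, had a median of 38.6 FPKM (from 22.1 to 50.7 FPKM), above that of *Apoa4*. In bulk liver, fewer cells of a type and less RNA per cell cannot be told apart. The 3 ΔRRE libraries highest in *Lcn2*, an acute-phase gene, stood apart from the rest. They were the 2 of CT10 and replicate 1 of CT14, and they had 79.4, 87.1 and 205 FPKM of *Lcn2* against at most 25.9 FPKM in WT. The summed level of 20 acute-phase genes was 19572, 16548 and 21901 FPKM in these libraries and from 8181 to 12213 FPKM in WT. Waves and mean differences that rest on them are given with and without them. At CT10 no ΔRRE library remains without them, so mean differences without them do not cover CT10. The ΔRRE waves and peaks fitted without them likewise have no value at CT10 and only replicate 2 at CT14.

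In the mouse genome (GRCm38, which is mm10, with GENCODE M21), 4 of the apolipoprotein genes lay within 43340 bp of chromosome 9. They were *Apoa1* (chr9:46228580-46230466, plus strand), *Apoc3* (chr9:46232933-46235636, minus strand), *Apoa4* (chr9:46240696-46243459, plus strand) and *Apoa5* (chr9:46268633-46271919, plus strand). *Lipc* lay on the same chromosome at chr9:70798128-70952226, minus strand. The others were *Apob* (chr12:7977648-8016835, plus strand), *Apom* (chr17:35128997-35132050, minus strand), *Mttp* (chr3:138089854-138144968, minus strand), *Lcat* (chr8:105939551-105943382, minus strand) and *Cideb* (chr14:55754050-55758458, minus strand). *Cideb* shared 1451 bp with the opposite-strand gene *Nop9*, which had a median of 8.25 FPKM against 135 FPKM of *Cideb*. *Mttp* shared 1521 bp with *Trmt10a* on the opposite strand, which had a median of 1.67 FPKM. The libraries were directional, but whether strand was used for the FPKM is not given in the sources used here.

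RefSeq promoter sequences (GRCm38.p6, from 250 bases before to 50 bases after each start) were matched for 9 of the 10 genes, 11 sequences in all. *Apoc3* had no entry. They were searched on both strands for the E-box CACGTG, the element of CLOCK and BMAL1, for AGGTCA, the core hexamer bound by nuclear receptors including REV-ERB and ROR, for the D-box TTATGTAA and for the HNF4 motif CAAAGTCCA. *Apoa5* held an E-box, as did 7.15% of all 32851 promoters, and *Lipc* held AGGTCA on both strands, a motif in 16.3% of all promoters. The D-box and HNF4 letters, in 0.938% and 0.475% of all promoters, were in none of the 11 sequences. The windows that hold them are shown because both genes were among those called for a 24-h wave. The motif is in capitals, the sequence reads 5′ to 3′ on the strand of the gene, and a match is only a description of the letters.
Apoa5, chr9:46268514-46268543, plus strand: tctttgaccctcCACGTGgtgtttgctcag
Lipc, chr9:70934879-70934908, minus strand: gcaataatacagAGGTCAcccagctgacct
Lipc, chr9:70934867-70934896, minus strand: aggtcacccagcTGACCTttggtcaaatgt
The *Apoa5* E-box began at position -82 from the more upstream of its 2 annotated starts. The *Lipc* hexamers began at -88 and -76 from 1 of the 2 starts annotated for that gene. The second *Lipc* hexamer is AGGTCA read on the other strand, and the 2 windows overlap.

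The levels of the 10 genes spanned a wide range. *Apoa1* had the highest level, with a median of 5734 FPKM over the 24 libraries and a range from 4728 to 7086 FPKM. *Apoc3*, whose product slows the clearance of triglyceride-rich particles, followed at a median of 2017 FPKM. These ranges overlapped neither each other nor that of any other member. *Apob* had a median of 351 FPKM, *Apoa5* 243 FPKM and *Lcat* 220 FPKM. *Apob* was above *Apoa5* in 20 of 24 libraries and *Apoa5* above *Lcat* in 17 of 24, so the order of these neighbours was not the same in all libraries. *Apom* had a median of 156 FPKM and *Cideb* of 135 FPKM. *Lipc* and *Mttp* were close, with medians of 69.7 and 66.9 FPKM, and *Lipc* was above *Mttp* in 16 of 24 libraries. *Apoa4* was the lowest, with a median of 33.7 FPKM, and the most variable, with a highest value 5.09 times the lowest. For the other genes that ratio was between 1.499 (*Apoa1*) and 3.12 (*Apoa5*). Together the 10 genes made up 1.54% ± 0.102 (SD, n = 12) of the total FPKM in WT and 1.62% ± 0.159 (SD, n = 12) in ΔRRE. Their summed level was 9046 FPKM ± 429 in WT and 9251 FPKM ± 814 in ΔRRE, a mean difference of 205 FPKM within time points (two-sided exact permutation test over all 23328 distinct ways to split the 4 libraries at each time into 2 and 2, p = 0.406). The summed level was higher in replicate 1 than in replicate 2 in 12 of 12 groups, and its share of the total FPKM in 11 of 12. Of the single genes, *Apoa4* was higher in replicate 1 in 10 groups, *Apoc3* and *Cideb* in 9, *Apoa1* in 7 and *Apob* in 3, and of all tested genes 0.169% were so in all 12. The difference between the genotypes in the summed level changed sign after rescaling of the libraries (-46.5 FPKM) and without CT10 and the CT14 library highest in *Lcn2* (-8.51 FPKM).

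**Figure D1:**
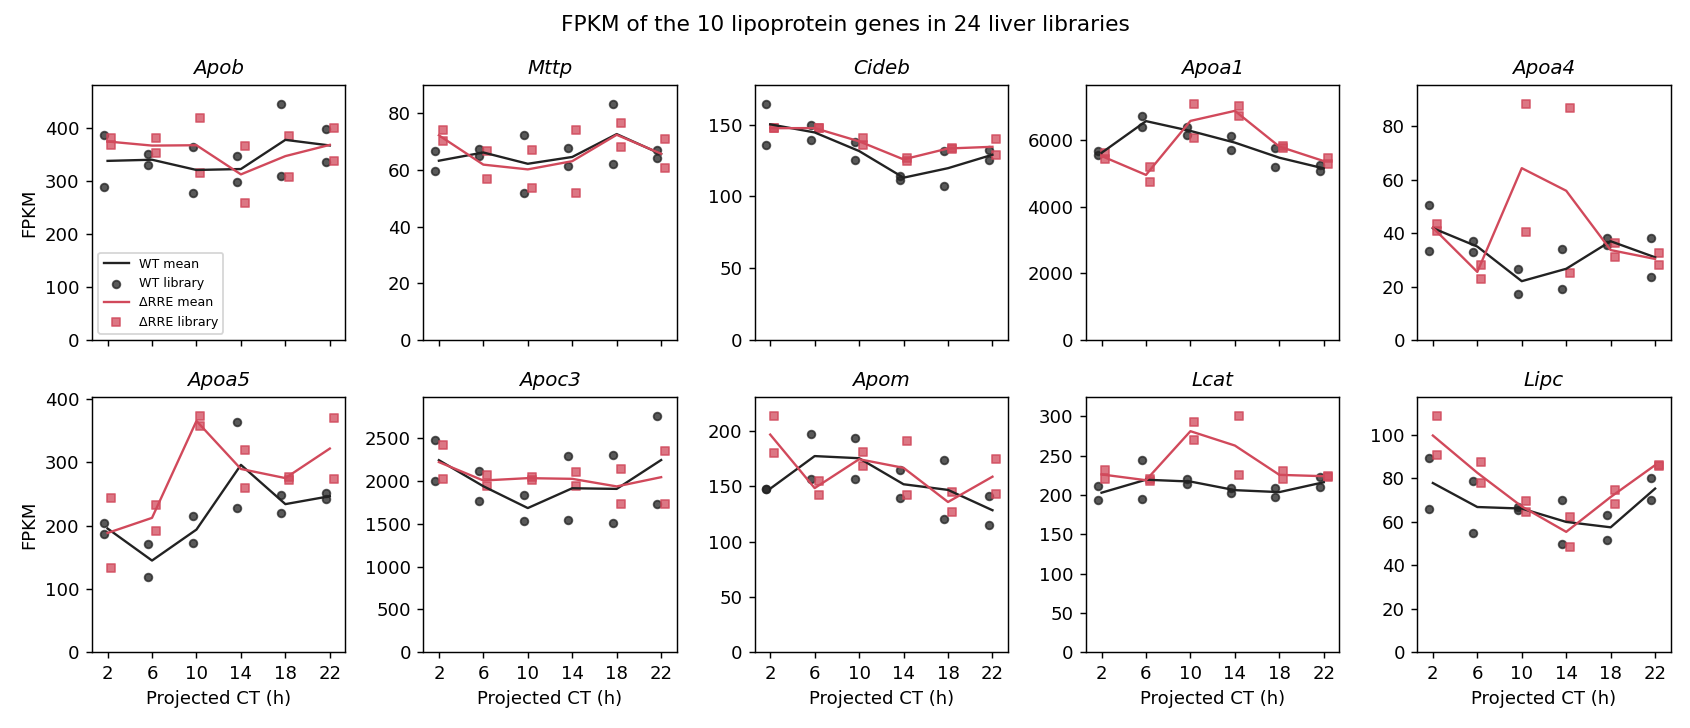
FPKM of each of the 10 genes (vertical axes, starting at 0) against projected circadian time, with circles for WT libraries, squares for ΔRRE libraries and lines through the means of the 2 libraries. The 2 highest *Apoa4* values were in 1 ΔRRE library at CT10 (88.3 FPKM) and 1 at CT14 (86.6 FPKM), and *Lipc* and *Cideb* were lowest near CT14 to CT18 in both genotypes.

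Replicate agreement differed between the genes. The SD between the 2 libraries of a group, pooled over the 12 groups on the log2(FPKM + 0.1) scale, was 0.07 for *Apoa1*, lower than for all but 0.213% of the tested genes. For *Cideb* it was 0.09 and for *Lcat* 0.12, against a median of 0.25 over all tested genes. *Apoa4* had the largest, 0.52, above 90.2% of genes.

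A 24-h wave shared by both genotypes was tested over all 24 libraries. *Lipc*, *Cideb*, *Apoa5* and *Apoa1* passed, 4 of the 10 genes, at an adjusted p under 0.05 (limma, Benjamini-Hochberg over all tested genes), beside 30.6% of all genes tested. The share among the members was near that background. Their median amplitude (the distance from the mean to the peak of the fitted wave) was 0.13 on the log2 scale, against 0.17 over all tested genes and 3.39 for *Dbp*, a clock output gene shown for scale. *Apob*, *Mttp*, *Apoa4*, *Apoc3*, *Apom* and *Lcat* did not pass. At an unadjusted p under 0.05 there were the same 4 members, beside 42.1% of all genes.

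*Lipc* encodes hepatic lipase, which hydrolyses the lipids of remnant particles and HDL. In WT its level was 89.6 and 66.1 FPKM at CT2, 54.6 and 79.0 at CT6, 65.2 and 67.0 at CT10, 69.9 and 49.98 at CT14, 63.1 and 51.8 at CT18 and 80.3 and 70.2 at CT22. In ΔRRE it was 109 and 90.7 FPKM at CT2, 87.5 and 77.6 at CT6, 64.7 and 69.5 at CT10, 48.5 and 62.3 at CT14, 74.5 and 68.3 at CT18 and 86.3 and 85.9 at CT22. The ΔRRE libraries were high around dawn and lowest at CT14, and the ranges of CT2 and CT14 did not overlap in that genotype, whereas the WT libraries of CT2 and CT14 overlapped. The amplitude over both genotypes was 0.29 (SE 0.06) on the log2 scale with a peak at CT1.73 (limma, adjusted p = 0.00167), and the call was kept in each of the 24 fits without 1 library. *Lipc* was the only member called rhythmic in ΔRRE alone, 1 of 10 beside 4.57% of all genes, with an amplitude of 0.38 (SE 0.06) and a peak at CT1.56 (limma, adjusted p = 0.00917). In WT the amplitude was 0.19 (SE 0.09) with a peak at CT2.09 (adjusted p = 0.325), and the test of the difference between the waves gave an unadjusted p of 0.225 (limma) and of 0.273 (exact permutation). The ΔRRE call was lost without the 3 libraries highest in *Lcn2* (amplitude 0.32, peak CT1.49, limma unadjusted p = 0.00237, adjusted p = 0.0953). In that fit 0.889% of all genes were called in ΔRRE.

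*Cideb* encodes a lipid droplet protein that acts in the lipidation of very-low-density lipoprotein. In WT it was at 164 and 136 FPKM at CT2, 139 and 150 at CT6, 125 and 138 at CT10, 114 and 112 at CT14, 132 and 107 at CT18 and 132 and 126 at CT22. In ΔRRE it was at 147 and 147 FPKM at CT2, 148 and 147 at CT6, 141 and 136 at CT10, 127 and 125 at CT14, 134 and 133 at CT18 and 140 and 129 at CT22. In both genotypes, all 4 libraries of CT2 and CT6 lay above both libraries of CT14. The amplitude over both genotypes was 0.15 (SE 0.03) with a peak at CT3.85 (limma, adjusted p = 0.00199), and the fitted peaks were CT3.78 in WT and CT3.99 in ΔRRE. The amplitude was 0.20 (SE 0.05) in WT and 0.11 (SE 0.04) in ΔRRE, which did not differ past the threshold (exact permutation p = 0.226).

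*Apoa5*, which promotes the lipolysis of plasma triglyceride, peaked in the subjective night. Its WT level was 187 and 204 FPKM at CT2, 170 and 119 at CT6, 173 and 215 at CT10, 364 and 228 at CT14, 248 and 220 at CT18 and 242 and 251 at CT22. In ΔRRE it was 134 and 243 FPKM at CT2, 232 and 192 at CT6, 373 and 358 at CT10, 319 and 260 at CT14, 273 and 277 at CT18 and 369.5 and 274 at CT22. In WT the lowest libraries were at CT6 and CT10, and in ΔRRE the highest library was at CT10. Over both genotypes the amplitude was 0.34 (SE 0.09), the largest of the 10 genes, with a peak at CT16.2 (limma, adjusted p = 0.0217). The fitted peak was CT17.4 in WT (amplitude 0.39, SE 0.11, adjusted p = 0.0673) and CT14.6 in ΔRRE (amplitude 0.33, SE 0.14, adjusted p = 0.307). The waves did not differ past the threshold (exact permutation p = 0.380). The shared wave passed without the 3 libraries highest in *Lcn2* (adjusted p = 0.0133), where the ΔRRE peak was CT18.1. It did not pass without the filter on low values (adjusted p = 0.0530) or with 4 wave terms (adjusted p = 0.0700).

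*Apoa1*, the structural protein of HDL, was at 5561 and 5670 FPKM at CT2 in WT, 6736 and 6399 at CT6, 6390 and 6158 at CT10, 5713 and 6133 at CT14, 5186 and 5755 at CT18 and 5058 and 5241 at CT22. In ΔRRE it was at 5621 and 5422 FPKM at CT2, 5181 and 4728 at CT6, 7086 and 6062 at CT10, 7035 and 6718 at CT14, 5833 and 5776 at CT18 and 5269 and 5470 at CT22. The WT libraries were highest at CT6, the time at which the ΔRRE libraries were lowest. The shared wave had an amplitude of 0.14 (SE 0.04) and a peak at CT11.4 (limma, adjusted p = 0.0401). This call was lost in 12 of the 24 fits without 1 library, and without the 3 libraries highest in *Lcn2* (adjusted p = 0.205). The fitted peak was CT8.68 in WT (amplitude 0.16, SE 0.06) and CT13.7 in ΔRRE (amplitude 0.19, SE 0.07), and the waves of the genotypes differed in the exact permutation test (p = 0.0144, two-sided, unadjusted, 1 of 10 genes so tested). In limma the same difference had an unadjusted p of 0.0316 and an adjusted p of 0.99993. Without the 3 libraries highest in *Lcn2* the ΔRRE peak was CT15.2 and the unadjusted p of the difference was 0.0253.

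In WT alone, 0 of 10 members passed an adjusted p under 0.05 (limma), beside 10.3% of all genes. At an unadjusted p under 0.05 there were 3, beside 27.6% of all genes, namely *Apoa5*, *Cideb* and *Apom* (limma, adjusted p = 0.0673, 0.0716 and 0.171). In ΔRRE alone there were 2 at that level, *Lipc* and *Apoa1*, beside 22.6% of all genes. By the study's looser criteria (p under 0.3 for the wave and limits on the ratio of time-point means), 2 members were rhythmic in WT, *Apoa4* and *Apoa5*, beside 37% of all genes, and 2 in ΔRRE, *Apoa5* and *Lipc*, beside 35.4%. *Apom* encodes the HDL apolipoprotein that carries sphingosine-1-phosphate, and its WT libraries were from 115 to 198 FPKM with a fitted peak at CT8.68. In simulated data with a log2 amplitude of 0.5 in 200 of 11244 genes, 51.0% of these were found in WT and 86.5% by the shared wave. All 10 members had amplitudes below this size. The 200 genes were picked at random and were a smaller share than the 10.3% called in WT here. The adjustment and the spread thus differed from those of the members, and the shares found do not apply to them.

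**Figure D2:**
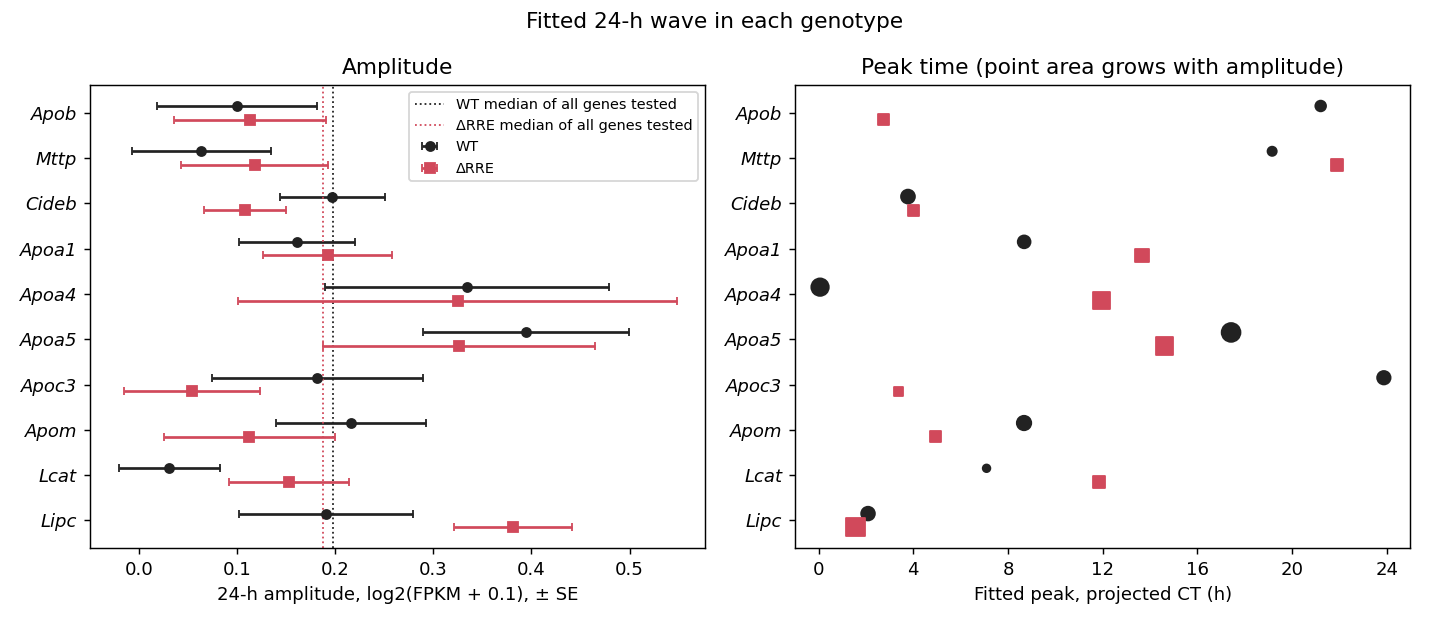
Fitted 24-h amplitude on the log2(FPKM + 0.1) scale (left, ± SE) and fitted peak in projected circadian time (right, point area grows with amplitude) for the 10 genes in WT (circles) and ΔRRE (squares), with dotted lines at the median amplitude of all 11244 genes tested. *Cideb* and *Lipc* had nearly the same peak in both genotypes, while the peaks of *Apoa4* lay at CT0.0619 in WT and CT12.0 in ΔRRE.

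No member had a rhythm that differed between the genotypes at an adjusted p under 0.05 (0 of 10, beside 0.00889% of all genes, which is *Arntl* alone). At an unadjusted p under 0.05 there was 1 member in limma, *Apoa1*, beside 2.84% of all genes. Without the 3 libraries highest in *Lcn2* the unadjusted p was 0.0253 for *Apoa1* and 0.0441 for *Apom* (limma). The share of all genes at an unadjusted p under 0.05 was not counted in that fit. At an adjusted p under 0.05 there were 0 members, beside 0% of all genes.

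*Apoa4*, an apolipoprotein of chylomicrons and HDL, had the largest difference between the fitted waves. In WT it was at 50.4 and 33.3 FPKM at CT2, 32.8 and 37.1 at CT6, 17.4 and 26.7 at CT10, 34.1 and 19.2 at CT14, 38.2 and 35.7 at CT18 and 38.2 and 23.7 at CT22. In ΔRRE it was at 43.2 and 40.8 FPKM at CT2, 28.0 and 23.0 at CT6, 88.3 and 40.2 at CT10, 86.6 and 25.1 at CT14, 36.3 and 31.0 at CT18 and 32.5 and 28.2 at CT22. Replicate 1 of CT10 and replicate 1 of CT14 thus stood far above the other ΔRRE libraries, which reached at most 43.2 FPKM, and their partners did not. The amplitude was 0.33 (SE 0.14) in WT and 0.32 (SE 0.22) in ΔRRE with peaks nearly opposite, at CT0.0619 and CT12.0, which left an amplitude of 0.007 for the shared wave (adjusted p = 0.999). The difference did not pass (limma unadjusted p = 0.0914, exact permutation p = 0.151). The same 2 libraries had the highest summed level of 7 erythroid genes, 4322 and 4452 FPKM against from 466 to 1537 FPKM in WT. They also had 2 of the 3 highest *Lcn2* values. Without the 3 libraries highest in *Lcn2*, the ΔRRE peak of *Apoa4* was CT23.2, the shared amplitude was 0.33 with a peak at CT23.7, and the adjusted p was 0.0702. The part of these markers in the *Apoa4* values was not tested.

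Mean levels over the day were compared between the genotypes with time point as a factor. No member differed at an adjusted p under 0.05 (0 of 10 in limma, beside 0% of all genes tested). At an unadjusted p under 0.05 there were 3, *Lcat*, *Apoa5* and *Lipc*, all higher in ΔRRE, beside 8.91% of all genes. A higher fitted mean in ΔRRE was found for 9 of the 10 members, and for 65.5% of all genes, whose median difference was 0.04. After rescaling by the median of ratios the median of all genes was -0.002 and 8 of the 10 members were higher in ΔRRE, *Apoa1* and *Mttp* being lower. The median difference of the members was 0.08 before and 0.04 after rescaling.

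*Lcat* encodes the plasma enzyme that esterifies cholesterol on HDL. In WT it was at 212 and 194 FPKM at CT2, 245 and 194 at CT6, 215 and 220 at CT10, 209 and 203 at CT14, 198 and 209 at CT18 and 223 and 210 at CT22. In ΔRRE it was at 232 and 220 FPKM at CT2, 220 and 217 at CT6, 293 and 270 at CT10, 301 and 225 at CT14, 221 and 230 at CT18 and 223 and 225 at CT22. Both ΔRRE libraries were above both WT libraries at each time other than CT6. The difference was 0.18 (SE 0.06) on the log2 scale (exact permutation p = 0.00266, limma unadjusted p = 0.00457, adjusted p = 0.384). The 3 libraries highest in *Lcn2* were also the 3 highest in *Lcat*. Without them the difference was 0.10 (SE 0.05, limma unadjusted p = 0.0653), and the part of the acute-phase genes in it was not tested. The gene nearest to *Lcat* in its pattern over the 24 libraries was *Kng1*, kininogen, with r = 0.85.

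*Apoa5* was higher in ΔRRE by 0.33 (SE 0.12) on the log2 scale (exact permutation p = 0.0237, limma unadjusted p = 0.0124, adjusted p = 0.439), with no overlap of the genotypes at CT6, CT10, CT18 and CT22. Without the 3 libraries highest in *Lcn2* the difference was 0.21 (SE 0.13, limma unadjusted p = 0.127). *Lipc* was higher by 0.19 (SE 0.08, exact permutation p = 0.0395, limma unadjusted p = 0.0320, adjusted p = 0.522), without overlap at CT2, CT18 and CT22. For *Lipc* the difference was larger without those libraries, 0.27 (SE 0.09, limma unadjusted p = 0.00568, adjusted p = 0.826). It was smaller after rescaling, 0.15 (limma unadjusted p = 0.101, adjusted p = 0.801). *Cideb* was higher by 0.08 (SE 0.04, exact permutation p = 0.0442, limma unadjusted p = 0.0953, adjusted p = 0.644), and by 0.04 after rescaling (limma unadjusted p = 0.484). The other genes had exact permutation p-values from 0.252 (*Apoa4*) to 0.985 (*Apoa1*). *Apoa1* had a difference of -0.0009 (SE 0.06) and *Mttp* of 0.002 (SE 0.07).

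**Figure D3:**
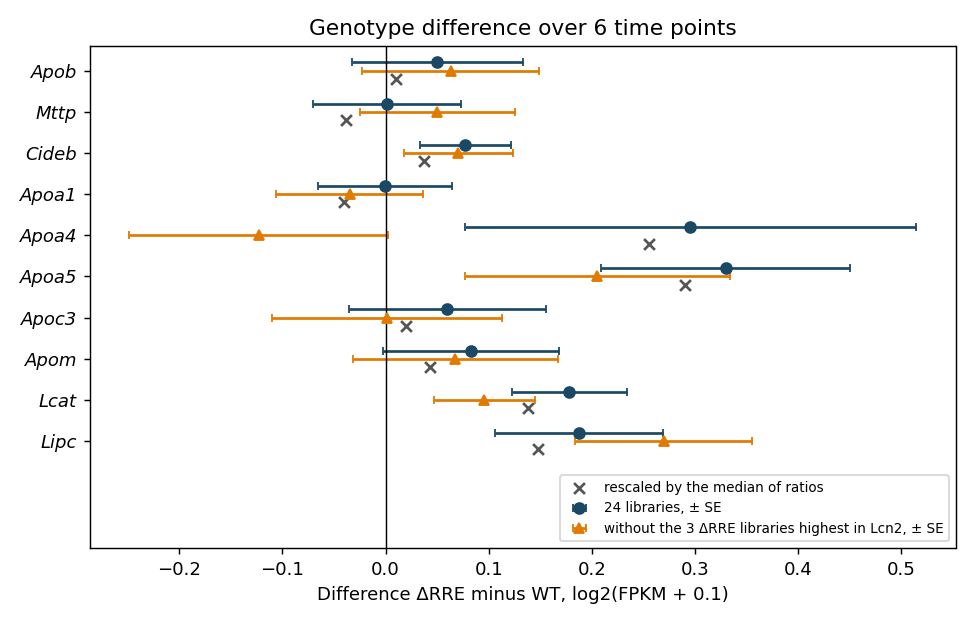
Difference ΔRRE minus WT on the log2(FPKM + 0.1) scale for each gene. Circles (± SE) are from all 24 libraries and crosses are after rescaling, both over the 6 time points. Triangles (± SE) are without the 3 ΔRRE libraries highest in *Lcn2*. No ΔRRE library of CT10 remains there, so the triangles do not cover CT10. *Apoa4* moved from 0.30 to -0.12 without the 3 libraries, *Lcat* from 0.18 to 0.10, and *Lipc* from 0.19 to 0.27.

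At single time points, 0 of 10 members differed at an adjusted p under 0.05 (limma), beside 0.00889% of all genes at CT2 and CT18, 0.0178% at CT10, 0.0267% at CT14 and 0% at CT6 and CT22. The unadjusted p was under 0.05 for *Apoa1* and *Apoa5* at CT6 (3.28% of all genes), for *Apoa4*, *Apoa5* and *Lcat* at CT10 (6.16%), and for *Lcat* at CT14 (4.63%). It was so for no member at CT2 (2.57% of all genes), CT18 (3.61%) and CT22 (4.66%). *Apoa1* was lower in ΔRRE at CT6, where the log2 difference was -0.41 (SE 0.15, unadjusted p = 0.0131 in limma). *Apoa5* was higher at CT10 by 0.92 (SE 0.26), a 1.90-fold difference (limma unadjusted p = 0.00296, adjusted p = 0.452). *Apoa4* was higher at CT10 by 1.47 (SE 0.46, limma unadjusted p = 0.00592, adjusted p = 0.480). Both ΔRRE libraries of CT10 are among the 3 highest in *Lcn2*. *Lcat* at CT14 was higher by 0.34 (SE 0.14), and by 0.13 (SE 0.15, limma unadjusted p = 0.394) without the CT14 library highest in *Lcn2*.

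With 2 libraries a group, ranges often separate, so the counts stand beside the share of all genes. At CT10 both ΔRRE libraries were above both WT libraries for 4 members, beside 17.4% of all genes, and at CT14 for 3, beside 17.4%. The number was 4 at CT2 (18.6% of all genes), 2 at CT6 (16.2%), 5 at CT18 (24.5%) and 5 at CT22 (21.7%). Below both WT libraries were 3 members at CT6, *Apoa1*, *Apoa4* and *Apom*, beside 11.8% of all genes, and none at CT2 (10.9% of all genes), CT10 (15.4%), CT14 (10.9%), CT18 (6.72%) and CT22 (15.4%).

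*Apob* and *Mttp* showed neither a wave nor a genotype difference that passed, but varied together between libraries. *Apob* encodes the scaffold protein of very-low-density lipoprotein and *Mttp* the protein that loads lipid onto it. *Apob* was from 276 to 445 FPKM in WT and from 258 to 419 FPKM in ΔRRE, and *Mttp* from 51.9 to 83.4 and from 52.0 to 76.7 FPKM. Their shared-wave amplitudes were 0.08 (SE 0.06) and 0.09 (SE 0.05). In 9 of the 12 groups the library higher in *Apob* was also higher in *Mttp*. The deviations from the group means of these genes had an r of 0.85, the highest of the 45 pairs of members. With 2 libraries a group, the deviations within a group are equal and opposite, so each r of this kind rests on 12 groups. Against *Apob*, *Apoa4* had an r of -0.80, *Cideb* of -0.80 and *Apoc3* of -0.73, and the library higher in *Apob* was the lower in *Apoa4* in 11 of 12 groups. These correlations are descriptions across libraries in which all genes share 1 scale.

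*Apob* has the longest transcript of the 10, 13934 nucleotides, and the others are between 709 (*Apoc3*) and 3963 (*Mttp*) nucleotides. The balance between long and short transcripts was therefore measured in each library, as the median log2 deviation of the 1232 tested genes with a longest transcript over 6000 nucleotides minus that of the 1576 genes under 1500 nucleotides. It ranged from -0.22 to 0.17 in WT and from -0.20 to 0.14 in ΔRRE, with medians of 0.02 in both. Of the members, *Apob* was itself among the long genes, and *Cideb*, *Apoc3*, *Apoa1*, *Apom* and *Lcat* were among the short genes. Within groups *Apob* followed this balance with an r of 0.91 and *Mttp* with 0.71, while *Cideb* had -0.81, *Apoa4* -0.76 and *Apoc3* -0.71. *Apom*, a short gene, had 0.45, whereas *Lcat* had -0.30, *Apoa5* -0.40 and *Lipc* -0.45. *Apoa1* had 0.05. The 2 libraries highest in *Apoa4* had a balance of -0.16 and -0.20, the 2 lowest of the 12 ΔRRE libraries. The part of the balance in the member values was not tested.

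**Figure D4:**
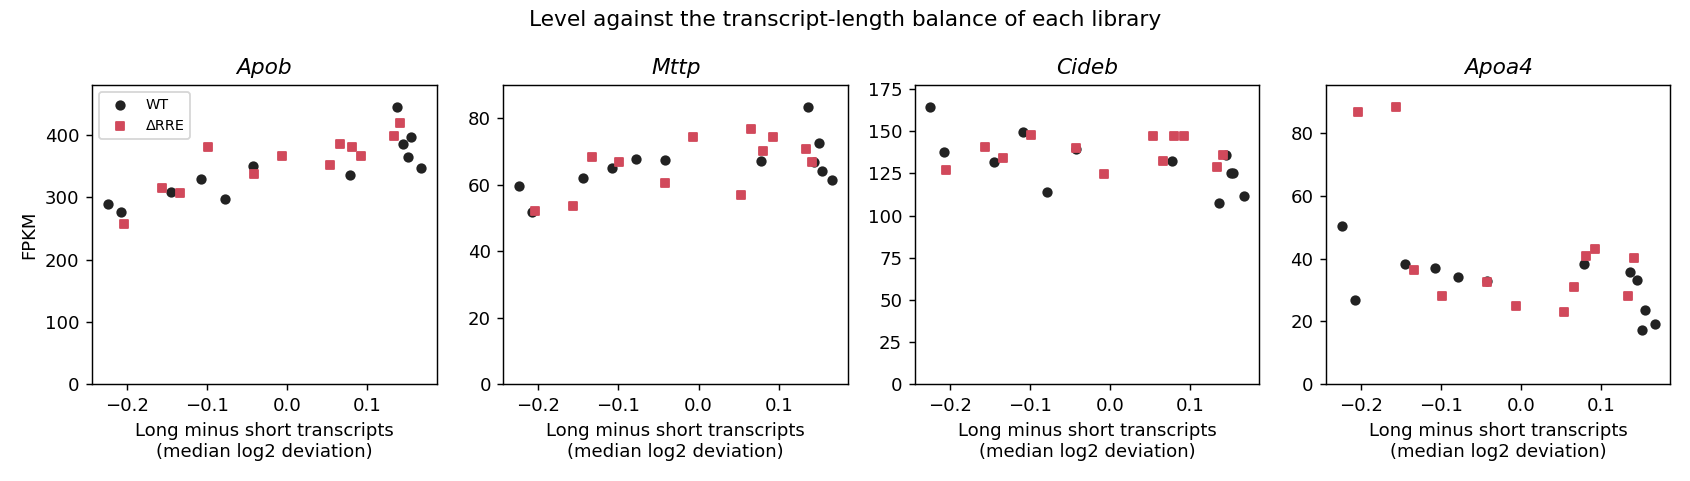
FPKM of *Apob*, *Mttp*, *Cideb* and *Apoa4* (vertical axes, starting at 0) against the balance of long minus short transcripts (horizontal axes, median log2 deviation) in 12 WT (circles) and 12 ΔRRE (squares) libraries. *Apob* rises along the axis in both genotypes, and the 2 libraries highest in *Apoa4* lie at the left, at -0.16 and -0.20.

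The 4 neighbouring genes of the chromosome 9 cluster did not vary as a block. Over the 24 libraries the 6 pairs had a Pearson's r from -0.30 (*Apoa1* and *Apoc3*) to 0.50 (*Apoa4* and *Apoc3*). For *Apoa4* and *Apoc3* the permutation p of r was 0.0128 (0.0766 adjusted over the 6 pairs) and Spearman's rho was 0.64 (permutation p = 0.00107, adjusted p = 0.00642). The resamples shuffled all 24 libraries across times and genotypes, so the p-values of these pairs also take in differences between the groups. Without the 2 libraries farthest from the median of *Apoa4*, r was 0.69. With all libraries of a genotype, r was 0.74 in WT and 0.28 in ΔRRE, and for the deviations from the group means it was 0.52. *Apoa1* and *Apoa4* had an r of 0.33 (permutation p = 0.115, adjusted p = 0.261) and a rho of 0.11 (permutation p = 0.597, adjusted p = 0.740), and r became -0.16 without the 2 libraries farthest from the median of *Apoa1*. Within the genotypes the r of *Apoa1* and *Apoa4* was -0.37 in WT and 0.71 in ΔRRE, and that of *Apoa1* and *Apoa5* was -0.58 and 0.46. No difference in r between the genotypes was tested. The remaining 4 pairs had adjusted p-values of at least 0.261 for r in this permutation test. All pairs share the library, and *Apoa4* and *Apoc3* both followed the length balance, as given above.

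By pattern over the 24 libraries, the nearest gene outside the list was *Nipsnap1* for *Cideb* (Pearson's r = 0.92), *Ascc3* for *Apob* (0.86), *Gm4952* for *Lipc* (0.85), *Gstk1* for *Apoa4* (0.82), *Slc20a1* for *Apoa1* (0.81), *Rnf26* for *Apom* (0.81), *Irak1* for *Mttp* (0.81), *Apoa2* for *Apoc3* (0.78) and *Sik1* for *Apoa5* (0.76). *Apoa2*, a further HDL apolipoprotein gene, was the only one of these on the wider lipoprotein lists. These are the highest of many correlations and carry no test.

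The wider pathway was described by 40 other genes of lipoprotein metabolism, of which 39 passed the filter on low values. A shared wave was called for 19 of 39 (limma, adjusted p under 0.05), beside 30.6% of all genes, with a median amplitude of 0.22. In WT 10 were called, beside 10.3% of all genes, and from 5 to 10 without 1 library, 3 without the filter and 4 with time as a factor. In ΔRRE 5 were called, beside 4.57% of all genes, and 2 without the 3 libraries highest in *Lcn2*, beside 0.889%. Of 7 further apolipoprotein genes 1 was called, *Apof* (amplitude 0.15, peak CT5.90, adjusted p = 0.0315). Of the assembly genes, *Dgat2*, which makes triglyceride, had an amplitude of 0.29 with a peak at CT14.2, *Pla2g12b* of 0.29 at CT3.57 and *Apobec1*, the *Apob* mRNA editing enzyme, of 0.58 at CT23.9. Among genes acting in plasma, *Lipg*, endothelial lipase, had 0.90 at CT13.6, *Angptl8*, an inhibitor of lipoprotein lipase, 1.46 at CT18.5, and *Angptl4* in WT 0.88 at CT11.0. Of the uptake genes, *Sort1* had 0.63 at CT5.78, *Scarb1*, the HDL receptor, 0.23 at CT5.62 and *Sdc1* in WT 0.38 at CT23.0. The largest amplitudes were those of the REV-ERB genes on the regulator list, *Nr1d1* (2.93, peak CT7.80) and *Nr1d2* (1.55, CT9.89). *Angptl4* and *Sdc1* were called in WT, and the others named here in the shared wave. Among the genes called in ΔRRE were *Nr1d1* (2.84), *Nr1d2* (1.49), *Sort1* (0.62) and *Apobec1* (0.63). None of the 39 genes differed in mean level or in rhythm between the genotypes at an adjusted p under 0.05 (limma). At an unadjusted p under 0.05, 10 differed in mean level, beside 8.91% of all genes, and 1 in rhythm, beside 2.84%.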

How the data were processed

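The authors deposited one table of FPKM per library, without pooling. The submitters' processing notes name Trimmomatic 0.39, HISAT2 2.1.0, StringTie 1.3.5 and mm10, without settings. Deposited FPKM are not counts, so tests for counts were not used.

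Genes whose level averaged 1 FPKM or more were analysed as log2(FPKM + 0.1). A fold change on this scale understates the change of low genes. Models were fitted with limma 3.58.1 (R 4.3.3, trended prior variance): a cosine and a sine of 24 h per genotype or shared with a genotype term, their difference, genotype with time as a factor, and genotype at each time. P-values were adjusted by Benjamini-Hochberg over all tested genes. Exact permutation tests of single genes used all 23328 divisions, and correlations 100000 resamples. Steps were tested on simulated data. Transcript lengths were the longest protein-coding GENCODE transcript, and the length balance was added after the values were seen.

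The members, lists and tests were chosen with earlier results of these data known. Named beside the members were list genes with an adjusted p under 0.05 (at most 3 per list and test), the nearest gene of each member, *Arntl* and *Dbp*. Some list genes that this rule names are not reported here. Alternatives are given in the closing section. BIO_CYCLE was not run. Python 3.11.15, NumPy 2.4.6, pandas 2.3.3, SciPy 1.17.1 and matplotlib 3.10.9 were used.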

Additional observations from a re-analysis of the deposited data

Results flagged for a closer look

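The 24-h wave of *Apoa1* differed between ΔRRE and WT in the exact permutation test over the libraries (two-sided p = 0.0144, unadjusted, 1 of 10 genes so tested). The fitted peaks were CT8.68 in WT and CT13.7 in ΔRRE. Across all genes the limma test of the same difference did not pass (adjusted p = 0.99993). When the time points were fitted as separate levels, the unadjusted p of the difference was 0.113 (limma).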

How the results depend on the processing

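FPKM without counts limit the precision, and 2 libraries per group limit every test. No member was called for a rhythm difference, a mean difference or a difference at a time point under any alternative run. The shared-wave count of 4 members became 2 without the filter on low values. It was 3 with time as a factor, 3 with 4 wave terms, 3 without the 3 libraries highest in *Lcn2*, and from 3 to 4 without 1 library. Called in WT were 0 members, 1 after rescaling (*Apoa5*), 1 with a shared spread (*Cideb*), 2 by the study's criteria, and from 0 to 1 without 1 library (*Apoa5* without WT CT18 replicate 2, *Cideb* without WT CT18 replicate 1). Called in ΔRRE was 1 member, 0 with time as a factor, 0 without the 3 libraries highest in *Lcn2* (an alternative chosen after seeing the data) and 2 by the study's criteria. Without those 3 libraries, 0.889% of all genes were called in ΔRRE, against 4.57% with them. Of the other lipoprotein genes, the 10 called in WT became 3 without the filter, 4 with time as a factor, 20 by the study's criteria and from 5 to 10 without 1 library, the lowest without WT CT14 replicate 2, and 6 without WT CT2, CT10 or CT14 replicate 1 or CT22 replicate 2. The 5 called in ΔRRE became 3 without the filter, 3 with time as a factor, 2 without the 3 libraries and 16 by the study's criteria. The cause was not tested.

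The adjusted p of *Apoa1* for the shared wave was between 0.0156 and 0.0853 without 1 library, the highest without ΔRRE CT10 replicate 1. It was 0.333 without the filter and 0.215 with time as a factor (limma). The call was lost without WT CT10 replicate 1 or 2, CT14 replicate 2 or CT22 replicate 1 or 2, or ΔRRE CT2 replicate 2, CT10 replicate 1, CT14 replicate 1 or 2, CT18 replicate 2 or CT22 replicate 1 or 2. That of *Apoa5* was 0.0530 without the filter and 0.0700 with 4 wave terms. The mean difference reversed for *Apoa4* without the 3 libraries (-0.12), for *Mttp* after rescaling (-0.0383), and without 1 library for *Apoa1* (from -0.0197 to 0.0308) and *Mttp* (from -0.0254 to 0.0350). The summed FPKM of the members differed by from 124 to 286 FPKM without 1 library, by -46.5 FPKM after rescaling, and by -8.51 FPKM without the 3 libraries and CT10.

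Over all tested genes, the deviations of same-numbered libraries of the genotypes had an r from -0.12 to 0.21 by time point, below 0.1 at 4 of 6 times, so the numbers were not taken to pair the libraries, although the members' summed level was higher in replicate 1 in 12 of 12 groups. With the replicate block, 0 members were called in WT, 1 in ΔRRE, 4 for the shared wave, 0 for the rhythm difference and 0 for the mean difference, and the block took the calls over all genes from 3437 to 3562 for the shared wave and from 1, *Arntl*, to 0 for the rhythm difference. For the summed level, exchanging the genotypes within each time and replicate number gave p = 0.453 (exact permutation, chosen after seeing the data) for the same difference of 205 FPKM.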
